A study of Mus musculus with 8 samples.

Results

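Organic anion, organic cation, bile acid and nucleoside carriers were measured in mouse colon by 53 probes for 38 genes, out of 41174 probes and 19440 named genes on the array. They were chosen by name alone: all probes named Slc22a or Slco with a number, Slc10a1 and Slc10a2, and the nucleoside carriers Slc28a2, Slc28a3 and Slc29a1 to Slc29a3. The names Slc47a, Slc51a, Slc51b (and the older Osta and Ostb) and Slc28a1 were also searched and matched no probe. The Slc22 family gave 22 probes for 16 genes, the Slco family 20 probes for 15 genes, Slc10 3 probes for 2 genes, Slc28 3 probes for 2 genes and Slc29 5 probes for 3 genes. A further 19 probes belong to the same families by their RefSeq accession but carry other names on the array, and they are described apart.

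The solute carriers of the Slc22 and Slco families move drugs, hormones, prostaglandins, bile acids, carnitine and other small organic ions into cells, and often work against the ATP-driven efflux pumps of the same membrane. Slc10a2 takes up bile acids at the apical side of the intestinal epithelium and the Slc51a/Slc51b pair releases them at the basolateral side. Slc28 proteins pull nucleosides into cells with the sodium gradient, whereas Slc29 proteins let them equilibrate across the membrane.

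Colon RNA came from 4 male Mdr1a-/- mice that scored high for histological injury of the colon and from 4 male FVB/N mice that scored low. All were aged 21 to 24 weeks and fed the AIN-76A powdered diet without curcumin. Mdr1a-/- mice carry a germline disruption of Abcb1a, which encodes an efflux pump for drugs and other compounds, on the FVB/N background, and some develop spontaneous colitis. Each mouse had its own 2-colour array, with the sample in Cy3 and a common reference RNA in Cy5, pooled from liver, kidney, small intestine and colon of Swiss mice and from Swiss fetuses. Genotype, injury score and the choice of mice by that score change together, so that they cannot be told apart, and in whole colon fewer cells of a type and less RNA per cell cannot be told apart either. Values are log2(sample / reference), and a log2 fold change is the mean of the Mdr1a-/- arrays minus the mean of the FVB/N arrays. A negative level therefore means less signal than in the reference pool, in which liver and kidney are rich in these carriers.

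The targeted gene did not separate the groups. Abcb1a stood at -0.89, -0.95, -0.70 and -0.97 on the arrays labelled Mdr1a-/- and at -0.80, 0.01, -0.49 and -0.62 on those labelled FVB/N. Its log2 fold change of -0.40 ± 0.19 (SE) had an adjusted p of 0.362 (limma, Benjamini-Hochberg over all probes). No source used here says whether the probe lies in the disrupted part of the gene. In the authors' deposited table Abcb1a is at -1.62 (adjusted p = 9.75e-05). Of the slides that the labels list as used, 3 of the 4 Mdr1a-/- files and 0 of the 4 FVB/N files came from one. Every direction below rests on the labels, and the groups are named as labelled.

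Between 67.0% and 86.3% of probes gave a Cy3 signal above the 95th percentile of the 314 negative control spots, the lowest share on replicate 2 of the arrays labelled FVB/N. All 15 epithelial markers were above background on all 8 arrays. Their summed Cy3 signal was 589013 to 630639 on the arrays labelled Mdr1a-/- and 680209 to 816651 on those labelled FVB/N, and 2 of the 15 (Car4 and Slc26a3) were lower in the former and 0 higher. The 13 leukocyte markers summed to 199207 to 305070 against 88300.4 to 106479, and 3 (Ptprc, S100a8 and S100a9) were higher. The 7 fibroblast markers summed to 151798 to 274219 against 106391 to 155988, and 1 (Thy1, at 1.14) was higher. The 9 markers of enteric neurons and glia summed to 13854 to 17737 against 17035 to 27261, and 1 (S100b, at -0.81) was lower. None of the 8 smooth muscle markers passed, with sums of 168135 to 268106 against 231835 to 318222, nor did any of the 6 endothelial ones. Sums of adipose and pancreatic acinar markers ranged widely within groups, from 25144 to 215184 and from 120592 to 421793 on the arrays labelled FVB/N. None of the 6 liver or 6 kidney markers passed the test. Only the epithelial and leukocyte sums differed between the groups without overlap, and most markers of both lists missed the test. The sums of the other lists overlapped. The part of the cell mixture in the results below was not tested. The names of the raw data hold 3 dates, which are taken here as scan days, and the labels give none. Replicate 4 of the Mdr1a-/- arrays was alone on day 1. On day 2 there were 2 arrays of each group, and on day 3 there were 1 Mdr1a-/- and 2 FVB/N arrays.

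Of the 38 genes, 4 passed the test. Slco3a1, Slc28a3 and Slc28a2 were higher on the arrays labelled Mdr1a-/-, Slc22a18 was lower by 1 of its 2 probes, and the other 49 of 53 probes missed an adjusted p of 0.05. Over the whole array, 1.53% of probes were called higher and 1.45% lower, 2.98% in either direction. The 4 calls are 7.55% of the member probes, a count too small to set apart from that background. In 9 of 53 member probes (17.0%), 6 higher and 3 lower, all values of one group lay beyond all values of the other, compared with 10.3% of all probes. The median log2 fold change was 0.14 for the members and 0.02 for all probes, and 36 of the 53 (67.9%) were above 0, compared with 53.5% of all. The median size of the change without its sign was 0.24 for the members and 0.20 for all probes.

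**Figure D1:**
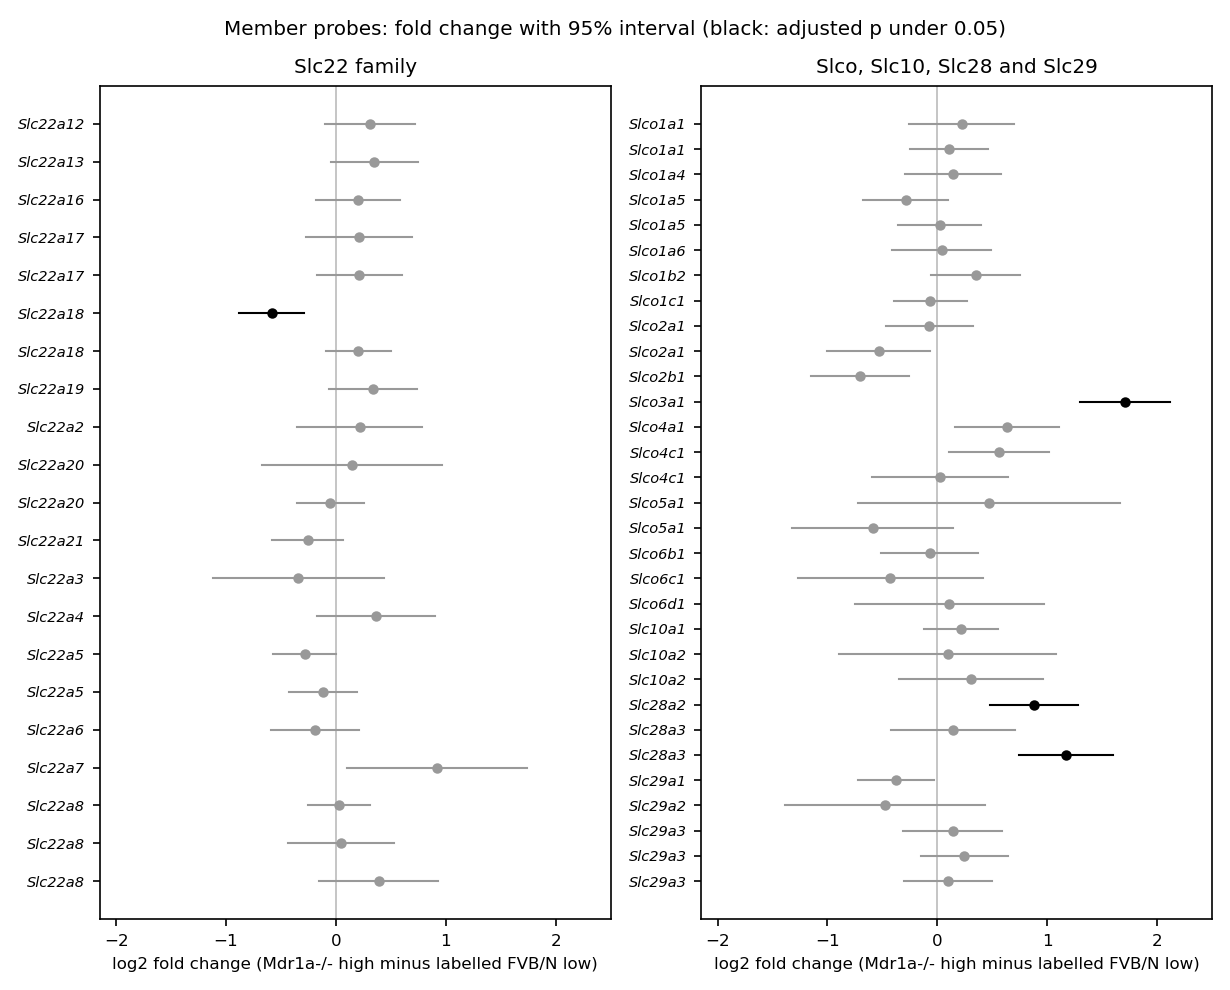
Log2 fold change of 52 of the 53 member probes (x axis, arrays labelled Mdr1a-/- high minus arrays labelled FVB/N low), with the 95% interval of the fit as a bar and one line per probe. The 4 probes with an adjusted p under 0.05 are black; Slco3a1 lies farthest from 0, at 1.70, and most other intervals cross 0.

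Of the 53 probes, 29 were above background on all 8 arrays, 40 on at least 4, and 3 on none. The share differed between families: 16 of 22 Slc22 probes, 8 of 20 Slco probes, 2 of 3 Slc10, 1 of 3 Slc28 and 2 of 5 Slc29 probes were above background on every array. No member came near saturation. More than 1 probe was present for 13 genes and a single one for 25.

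Among the Slco carriers, Slco3a1 differed most. It encodes a widely expressed carrier of organic anions, among them prostaglandins and thyroid hormone. On the arrays labelled Mdr1a-/- it stood at -0.55, -0.41, -0.67 and -0.05, and on those labelled FVB/N at -2.04, -2.46, -2.06 and -1.93. All values of the first group lay above all of the second, and replicate 4 of the Mdr1a-/- arrays was the highest. The difference was 1.70 ± 0.18 on the log2 scale (SE; 95% interval 1.29 to 2.11), or 3.26-fold, with a limma adjusted p of 0.00226. It passed the test without any one array, at 1.58 to 1.79. A block for scan day gave 1.55 (adjusted p = 0.0183). Within day 2 alone, with 2 arrays a group, it was 1.58 (adjusted p = 0.194), and within day 3 it was 1.52 with no test.

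Slco2b1, a carrier of steroid sulfates and many drugs in the intestinal epithelium, had values of -1.54, -1.003, -1.87 and -1.80 on the arrays labelled Mdr1a-/- and of -0.85, -0.95, -0.84 and -0.76 on those labelled FVB/N. The groups did not overlap, but replicate 2 of the Mdr1a-/- arrays lay close to the nearest FVB/N array. The log2 fold change of -0.71 ± 0.20 (SE) missed the threshold (limma adjusted p = 0.103). Without that array it was -0.89, with an adjusted p of 0.0199, and it was the largest negative value among the Slco probes.

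Slco4a1, a carrier of thyroid hormone and prostaglandins, stood at -0.01, -0.02, -0.74 and 0.26 on the arrays labelled Mdr1a-/- and at -0.90, -0.77, -0.77 and -0.60 on those labelled FVB/N. The arrays of the first group were above the second, except replicate 3, which lay inside it. The difference was 0.63 ± 0.21 (SE; adjusted p = 0.174 in limma), and 0.84 without that array (adjusted p = 0.0232).

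Slco2a1 encodes the prostaglandin transporter, which clears prostaglandin E2 before it is broken down inside the cell. Its 2 probes gave -0.07 ± 0.18 and -0.53 ± 0.21 (SE), neither past the test (limma adjusted p = 0.902 and 0.259). On the brighter probe the arrays labelled Mdr1a-/- stood at -0.67, 0.02, -0.46 and -0.47, around those labelled FVB/N at -0.51, -0.21, -0.19 and -0.39. The sign of that probe turned under 4 of the alternatives.

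The Slco1 genes, best known from liver, kidney and brain barriers, did not pass the test. Slco1a1 and Slco1a6 were above background on 0 of the 4 arrays labelled Mdr1a-/- and on 2 of the 4 labelled FVB/N, where Slco1a1 had 1 such probe of 2. With so few measured values no fold is given for them; the fit to all 8 ratios gave 0.22 and 0.04 (limma adjusted p = 0.713 and 0.956). The reference signal is far above both groups at levels of -4.51 to -4.73. Slco1b2, a hepatocyte carrier, was above background on all 8 arrays but also far below the reference, at -4.41 ± 0.19 and -4.76 ± 0.29 (SD, n = 4). The probes of Slco1a4, Slco1a5, Slco1c1, Slco4c1, Slco5a1, Slco6b1, Slco6c1 and Slco6d1 ranged from -0.59 to 0.56, and Slco6c1 was not well above background on any array.

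**Figure D2:**
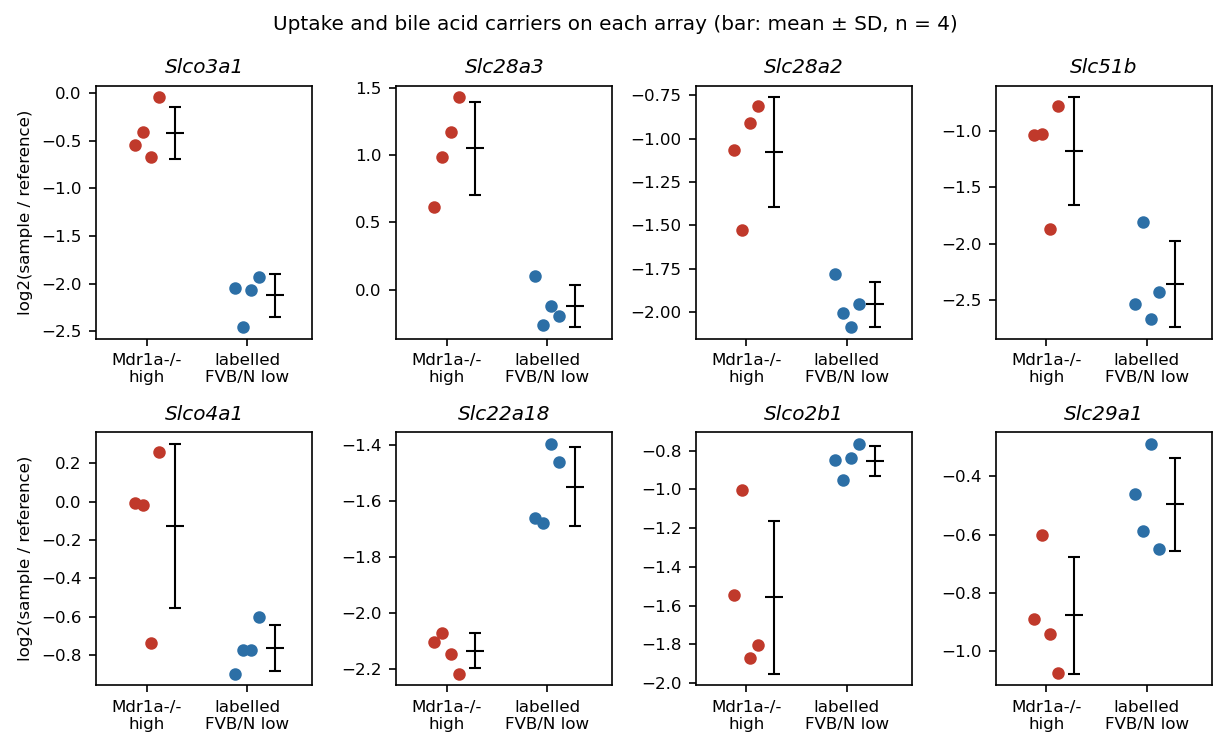
Log2(sample / reference) on each of the 8 arrays (y axis, separate scale per panel) for 8 carriers, with the arrays labelled Mdr1a-/- high in red, those labelled FVB/N low in blue and the mean ± SD (n = 4) beside each group. The groups are apart for Slco3a1, Slc28a3, Slc28a2, Slc22a18 and Slco2b1, and overlap for Slc51b, Slco4a1 and Slc29a1.

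Both concentrative nucleoside carriers on the array were higher on the arrays labelled Mdr1a-/-. Slc28a3, which carries purine and pyrimidine nucleosides, stood at 0.61, 0.99, 1.17 and 1.43 there and at 0.10, -0.26, -0.12 and -0.20 on the arrays labelled FVB/N. The groups did not overlap. They differed by 1.17 ± 0.19 (SE; 95% interval 0.74 to 1.60), a 2.25-fold difference with a limma adjusted p of 0.0129. It passed the test without any one array (1.04 to 1.31). The call was lost with scan day as a block, at 1.05 (adjusted p = 0.0834), and within day 2, at 0.81 (adjusted p = 0.398). A second Slc28a3 probe was above background on 0 of 4 and 2 of 4 arrays and gave 0.14 ± 0.25 (adjusted p = 0.861).

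Slc28a2, which prefers purine nucleosides, stood at -1.07, -1.53, -0.91 and -0.81 on the arrays labelled Mdr1a-/- and at -1.78, -2.01, -2.09 and -1.95 on those labelled FVB/N. The groups did not overlap, and replicate 2 of the Mdr1a-/- arrays lay closest to the other group. This made a log2 fold change of 0.88 ± 0.18 (SE; 95% interval 0.48 to 1.28), or 1.84-fold, with a limma adjusted p of 0.0334. The probe was dim, with 4 and 3 arrays of 4 above background. Leaving out any array but that one ended the call: the estimate ranged from 0.79 to 1.03 and the adjusted p reached 0.109. A block for scan day gave 0.81 (adjusted p = 0.160), and within day 2 it was 0.64 (adjusted p = 0.525).

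Because these carriers of one family changed in the same direction, their promoters are printed, from 250 bases before to 50 bases after the start of each gene in RefSeq (GRCm38.p6). Slc28a2 is at chr2:122426185-122426484 on the plus strand and Slc28a3 at chr13:58610828-58611127 on the minus strand, both written 5′ to 3′ along the gene. Capitals mark matches to the motifs searched.
Slc28a2: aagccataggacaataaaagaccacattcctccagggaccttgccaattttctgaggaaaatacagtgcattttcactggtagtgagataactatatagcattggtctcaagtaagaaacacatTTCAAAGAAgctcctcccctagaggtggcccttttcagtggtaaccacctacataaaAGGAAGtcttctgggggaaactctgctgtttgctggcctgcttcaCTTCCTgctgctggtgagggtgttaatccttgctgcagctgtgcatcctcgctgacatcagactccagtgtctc
Slc28a3: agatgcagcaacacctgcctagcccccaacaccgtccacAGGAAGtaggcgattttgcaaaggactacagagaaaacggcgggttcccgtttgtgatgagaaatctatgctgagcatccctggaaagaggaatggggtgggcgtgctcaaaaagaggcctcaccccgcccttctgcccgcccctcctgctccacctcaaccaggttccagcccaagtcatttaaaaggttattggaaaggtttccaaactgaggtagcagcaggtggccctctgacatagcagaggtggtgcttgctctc

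Both strands were searched for the STAT motif TTCNNNGAA, the AP-1 motif TGANTCA, the HNF4 motif CAAAGTCCA, the ETS motif AGGAAG and the TATA box TATAAA. The Slc28a2 promoter held 1 STAT match, 126 bases before the start, and 2 ETS matches. The Slc28a3 promoter held 1 ETS match, 211 bases before the start. Of the 32851 promoters in the table, 8.3% held the STAT letters and 35.4% the ETS letters, so the shared match is a common one. The letters of AP-1 (7.81% of promoters), HNF4 (0.475%) and TATA (13.6%) were not in these 2 windows. The table had a promoter for 33 of the 38 genes and none for Slco3a1.

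The equilibrative carriers did not pass the test. Slc29a1, the main carrier of adenosine across the plasma membrane, stood at -0.89, -0.60, -0.94 and -1.08 on the arrays labelled Mdr1a-/- and at -0.46, -0.59, -0.29 and -0.65 on those labelled FVB/N. The groups overlapped by 1 array on each side, and the difference was -0.38 ± 0.15 (SE; 95% interval -0.73 to -0.03; limma adjusted p = 0.281). Slc29a2 gave -0.48 ± 0.40 (SE) with 2 and 3 arrays above background, and the 3 probes of the lysosomal Slc29a3 gave 0.10 to 0.24.

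Slc22a18 was the only member called lower. It is an imprinted gene for a carrier of organic cations. Its brighter probe stood at -2.10, -2.07, -2.14 and -2.21 on the arrays labelled Mdr1a-/- and at -1.66, -1.68, -1.40 and -1.46 on those labelled FVB/N, with no overlap. The difference was -0.58 ± 0.13 (SE; 95% interval -0.88 to -0.29), a limma adjusted p of 0.0484. The call did not hold without any one of the 8 arrays (adjusted p from 0.0709 to 0.154), nor with scan day as a block (-0.57, adjusted p = 0.233). The other probe went the opposite way, at 0.20 ± 0.13 (adjusted p = 0.540), also with no overlap between groups. The probes therefore disagree on the gene.

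The carnitine carriers and their relatives did not pass the test. Slc22a5, the sodium-coupled carnitine carrier, gave -0.29 ± 0.13 and -0.12 ± 0.14 (SE) on its 2 probes (limma adjusted p = 0.340 and 0.776). On the first, the arrays labelled Mdr1a-/- stood at -1.56, -1.72, -1.65 and -1.76 and those labelled FVB/N at -1.28, -1.53, -1.37 and -1.36, apart by a small margin. Slc22a4, which carries ergothioneine, stood at -2.16, -2.03, -1.34 and -2.19 on the arrays labelled Mdr1a-/- and at -2.36, -1.97, -2.11 and -2.74 on those labelled FVB/N. The groups overlapped, with replicate 3 of the former highest, and the difference was 0.37 ± 0.24 (SE; adjusted p = 0.548). Slc22a21, a carnitine carrier of mice, stood at -0.23, -0.47, -0.51 and -0.66 and, on the arrays labelled FVB/N, at -0.24, -0.28, -0.02 and -0.30. Replicate 1 of the arrays labelled Mdr1a-/- lay among the others, and the difference was -0.26 ± 0.14 (SE; adjusted p = 0.471). These intervals allow changes of up to -0.57 for Slc22a5, 0.90 for Slc22a4 and -0.58 for Slc22a21.

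Slc22a7, an anion carrier of liver and kidney, stood at -2.77, -2.96, -2.83 and -3.28 on the arrays labelled Mdr1a-/- and at -3.39, -5.12, -3.61 and -3.39 on those labelled FVB/N. The groups did not overlap. Its estimate of 0.92 ± 0.36 (SE; limma adjusted p = 0.267) came down to 0.51 without replicate 2 of the arrays labelled FVB/N, and 1 of the 4 arrays labelled FVB/N was below background for it. Slc22a6, the main anion carrier of the kidney, stood at -3.13, -2.48, -2.71 and -3.05 on the arrays labelled Mdr1a-/- and at -2.79, -2.57, -2.48 and -2.78 on those labelled FVB/N. These overlapped, with a difference of -0.19 ± 0.18 (SE; adjusted p = 0.709). Slc22a3, a cation carrier of many tissues, was not well above background on any of the 8 arrays, so its ratios of -0.53, -1.20, 0.03 and 0.10, and of 0.12, -0.88, 0.26 and 0.29 on the arrays labelled FVB/N, give no level. Slc22a2, Slc22a8, Slc22a12, Slc22a13, Slc22a16, Slc22a17, Slc22a19 and Slc22a20 gave -0.05 to 0.39, and none passed the test.

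The apical bile acid carrier Slc10a2 varied more within groups than between them. On its brighter probe the arrays labelled Mdr1a-/- stood at -2.71, -2.62, -0.70 and -2.55 and those labelled FVB/N at -1.76, -2.02, -2.77 and -2.39. Replicate 3 of the former was alone far above the rest, and the difference between groups was 0.09 ± 0.44 (SE; adjusted p = 0.954 in limma), or -0.39 without that array. The second probe gave 0.31 ± 0.29 (SE), and another probe, under a different name on the array and above background on 2 of 4 arrays in each group, gave 0.65 ± 0.32 (adjusted p = 0.392). Slc10a1, the bile acid carrier of hepatocytes, gave 0.21 ± 0.15 (SE; adjusted p = 0.587).

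Slc51b, the smaller subunit of the basolateral bile acid exporter, carries a database identifier in place of a symbol on the array and so was not chosen by name. It stood at -1.03, -1.03, -1.87 and -0.78 on the arrays labelled Mdr1a-/- and at -2.53, -1.81, -2.67 and -2.42 on those labelled FVB/N. Replicate 3 of the former and replicate 2 of the latter overlapped slightly, and the others were apart. The log2 fold change of 1.18 ± 0.27 (SE; 95% interval 0.57 to 1.78) just missed the threshold (limma adjusted p = 0.0524), and passed without either of these arrays, at 1.41 (adjusted p = 0.0138) and 1.36 (adjusted p = 0.0401). It was not called without any other single array, with an adjusted p of up to 0.154. Within scan day 2 it was 1.57 (adjusted p = 0.194), and within day 3 it was 0.24 with no test. The authors' deposited table has Slc51b at 0.46 (limma adjusted p = 0.312). The partner subunit Slc51a stood at -3.61, -3.30, -3.55 and -3.71 on the arrays labelled Mdr1a-/- and at -3.62, -3.00, -3.23 and -3.61 on those labelled FVB/N by its brighter probe. The groups overlapped, and the difference was -0.18 ± 0.18 (SE; adjusted p = 0.736), with 0.51 ± 0.20 (adjusted p = 0.275) on the dimmer one. The efflux carrier Slc47a1, which moves organic cations out against protons, stood at -3.47, -3.28, -3.40 and -3.60 and, on the arrays labelled FVB/N, at -3.60, -3.57, -3.71 and -3.79 by its brighter probe. The groups overlapped at replicate 4 of the arrays labelled Mdr1a-/-. The difference was 0.23 ± 0.13 (SE; adjusted p = 0.495), and 0.19 on the other probe (adjusted p = 0.631). That dimmer probe was above background on 1 array labelled Mdr1a-/- and 3 labelled FVB/N, and the authors' deposited table calls it higher, at 0.46 (limma adjusted p = 0.00474).

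Slc22a23, an orphan member of the family listed as 3110004L20Rik, was lower by 2 of its 3 probes. One stood at -0.75, -0.33, 0.11 and -0.69 on the arrays labelled Mdr1a-/- and at 0.72, 0.48, 1.06 and 0.46 on those labelled FVB/N, a log2 fold change of -1.09 ± 0.23 (SE; limma adjusted p = 0.0357). The other gave -0.95 ± 0.19 (SE; adjusted p = 0.0311), also with no overlap. The authors' deposited table calls both lower too, at -0.68 and -0.60 (limma adjusted p = 0.0128 for each). The net Cy3 signal of the third and brightest probe reached 56627, close to the 60000 set here as near saturation, and the effect of this on its ratios was not tested. That probe gave -0.16 ± 0.18 (adjusted p = 0.749). The probes therefore disagree on the size, and all 3 are below 0. From the arrays, the first 2 were the only calls among the 19 probes with other names, whose values ranged from -1.09 to 1.18. Slc22a29 was not well above background on any array, and Slc22a14, Slc22a15, Slc22a22, Slc22a26 and Slc22a30 did not pass the test.

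The 4 calls were then followed across other fits, 8 of which left out 1 array. Another evened out only the mean intensities between arrays, which leaves the ratios unchanged, so it repeats the fit as reported. Slco3a1 kept its call in 19 of the 20 other fits, all but that within scan day 2. Slc28a3 kept it in 17, Slc28a2 in 8 and Slc22a18 in 5.

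**Figure D3:**
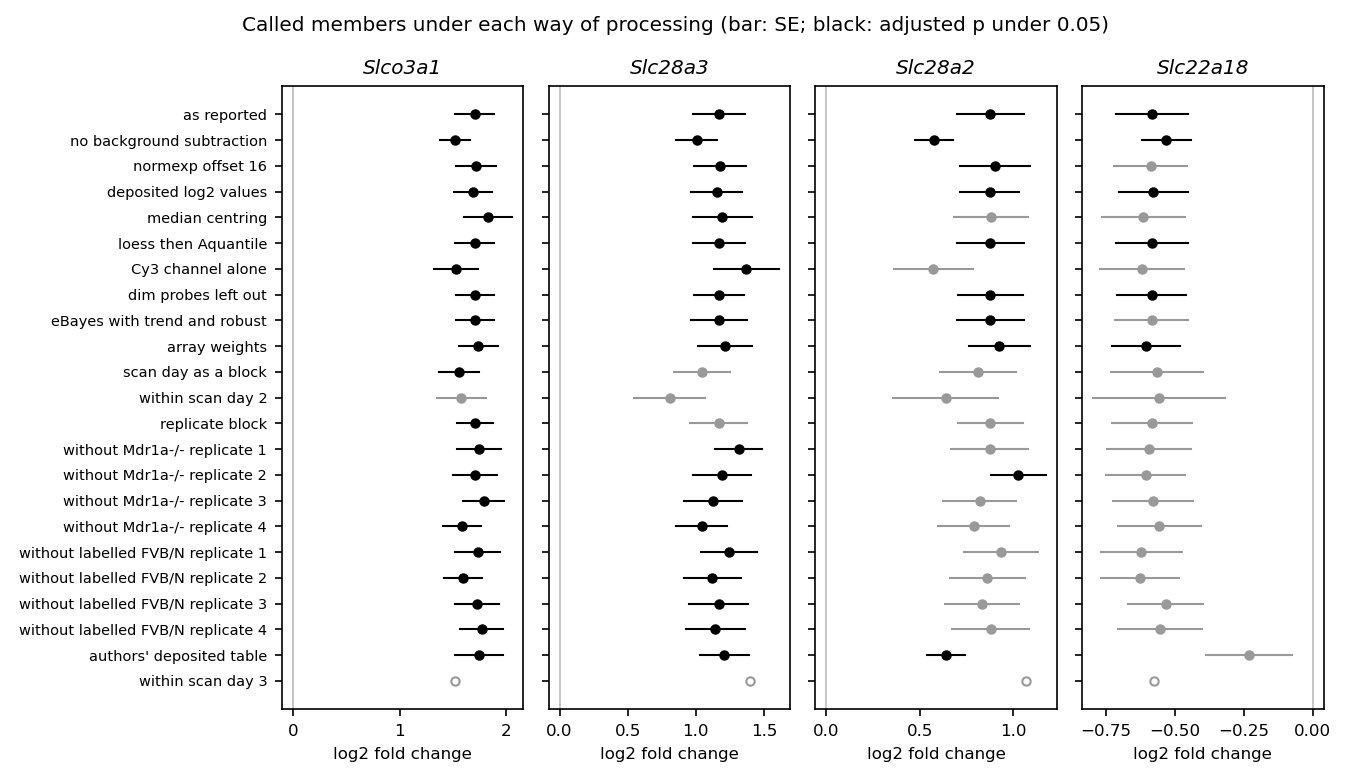
Log2 fold change with its SE (x axis) of the 4 called genes as reported, in the other fits, in the authors' deposited table and within scan day 3 (open circles, no test), one line per setting. Black marks an adjusted p under 0.05; Slco3a1 is black in all but the day 2 fit, Slc28a2 and Slc22a18 turn grey in most of the fits without 1 array, and no point crosses 0.

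The genes that act with these carriers were given by 8 lists, chosen with earlier results of these data known. In all, 15 of 100 genes measured, each by its brightest probe, were lower on the arrays labelled Mdr1a-/- and 0 were higher by limma. In other fits to these arrays up to 7 were higher. Of all probes, the dim ones included, 1.45% were lower and 1.53% higher. These shares are of unlike units, so no excess is read from them. Without 1 array 7 to 13 were lower, and with scan day as a block 2 were, so the counts of each list below hold for the fit without that block. The authors' deposited table calls genes of these lists in both directions. Among those higher there are Abcc5 at 0.51, Ptges at 0.60 and Ada at 0.90 (limma adjusted p = 0.00241, 0.0017 and 0.00701). Most of the genes called lower here are called lower there too, but not Nr5a2, Cda and Entpd5 (adjusted p = 0.122, 0.253 and 0.154). Of the 13 ABC efflux partners, 1 was lower, the sterol pump subunit Abcg5 at -1.44 ± 0.24 (SE; adjusted p = 0.0135), and the list median was 0.11. Abcb1b, the close relative of the targeted gene, gave 0.61, 0.59 and 0.40 on its 3 probes, with adjusted p of 0.115, 0.0771 and 0.507. The authors' deposited table has the same probes at -0.69, -0.26 and 0.08, with limma adjusted p of 0.00569, 0.199 and 0.757. The first of them is thus called lower there, with the opposite sign to the arrays. The cause of this difference was not tested.

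Of 17 regulators of carrier genes, 5 were lower. The fatty acid receptor Ppara was at -1.27 ± 0.15 (SE; limma adjusted p = 0.00342). The vitamin D receptor Vdr was at -1.11 ± 0.15 (adjusted p = 0.00638). The coactivator Ppargc1a, the receptor Nr5a2 and the epithelial factor Hnf4a were at -1.45, -1.34 and -1.13. The other 12 did not pass, and the list median was -0.15.

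Of 7 proteins listed as scaffolds of epithelial transporters, with PDZ domains or bound to them, 3 were lower. They were Slc9a3r1 at -1.17 ± 0.20, Pdzd3 at -1.15 ± 0.16 and Pdzk1ip1 at -0.94 ± 0.18 (SE). The list median was -0.04. Epithelial marker sums were lower in the same arrays, as given above, and their part in these values was not tested.

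In nucleoside handling, 3 of 18 genes were lower: the cytidine deaminase Cda at -1.13 ± 0.18, the peptidase Dpp4, in humans an anchor of adenosine deaminase, at -0.96 ± 0.18 and the nucleoside diphosphatase Entpd5 at -0.87 ± 0.19 (SE). The list median was 0.05. In prostaglandin synthesis and breakdown, 1 of 17 was lower, Hpgd, the enzyme that inactivates prostaglandins after uptake, at -1.72 ± 0.30 (SE; limma adjusted p = 0.0158), and the median was 0.11. Hpgd stood at -1.07, -1.04, -0.34 and -1.88 on the arrays labelled Mdr1a-/- and at 0.92, 0.59, 0.29 and 0.76 on those labelled FVB/N.

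In thyroid hormone and steroid sulfate handling, 1 of 10 was lower, the deiodinase Dio1 at -1.69 ± 0.15 (SE; limma adjusted p = 0.00122), with a median of -0.01. In the carnitine shuttle, 1 of 10 was lower, Crat at -0.75 ± 0.16 (SE; adjusted p = 0.0441), with a median of -0.28. In bile acid handling 0 of 11 genes passed, with a median of -0.08. The smallest adjusted p there was that of Slc27a5, at 0.183. Baat gave -0.58 ± 0.23 (SE; adjusted p = 0.268 in limma), above background on 0 of the arrays labelled Mdr1a-/- and 2 of those labelled FVB/N. The ileal genes Fabp6 and Fgf15 gave 0.39 and 0.30.

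**Figure D4:**
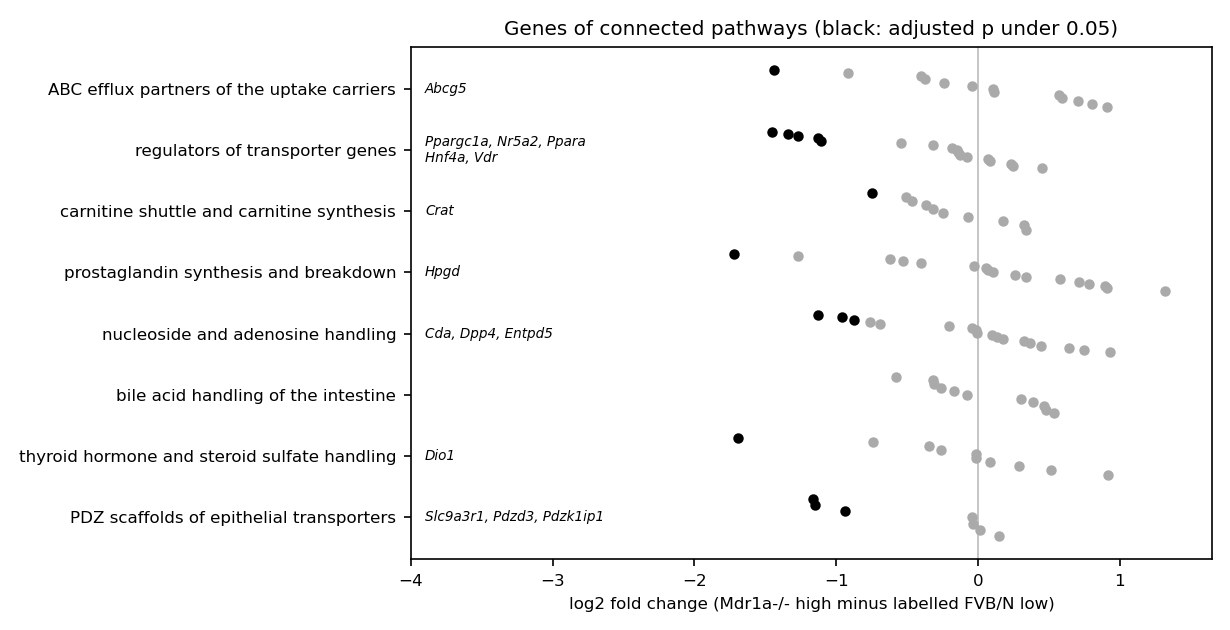
Log2 fold change (x axis, arrays labelled Mdr1a-/- high minus arrays labelled FVB/N low) of each gene in the 8 lists of partners, one row per list, with the genes past an adjusted p of 0.05 in black and named at the left. All 15 black points are below 0, and the bile acid row has none.

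The authors' deposited table of fold changes gave more calls for the same probes, as it did for the whole array. It holds a test for 46 of the 53 probes and calls 10 higher and 1 lower, compared with 6.29% and 4.35% of all probes in it (10.6% in either direction). Its fold changes are described as log10 by the authors but were read as log2, since they follow the arrays' log2 fold changes with a slope of 0.87 without background subtraction and 0.62 with the normexp values used here. Slco3a1 is at 1.74 (adjusted p = 5.64e-05), Slc28a3 at 1.21 (adjusted p = 0.000224) and Slc28a2 at 0.64 (adjusted p = 0.000431) in the authors' deposited table.

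These 3 probes were called in both, which is 75% of the calls from the arrays and 27.3% of those of the authors' deposited table. Slc22a18 is not called in the authors' deposited table, at -0.23 (adjusted p = 0.401). Calls of that table alone were Slc22a7, Slc22a19, Slco1a6, Slco4a1 and both Slco1a1 probes, higher, and Slc29a1, lower, at -0.41 (adjusted p = 0.00915). Slco1a6 and both Slco1a1 probes were above background on 0 of the 4 arrays labelled Mdr1a-/-, so no higher level is read from their calls. The degrees of freedom implied by its t and p values had a median of 18.7, compared with 9.41 in the fit to these 8 arrays.

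**Figure D5:**
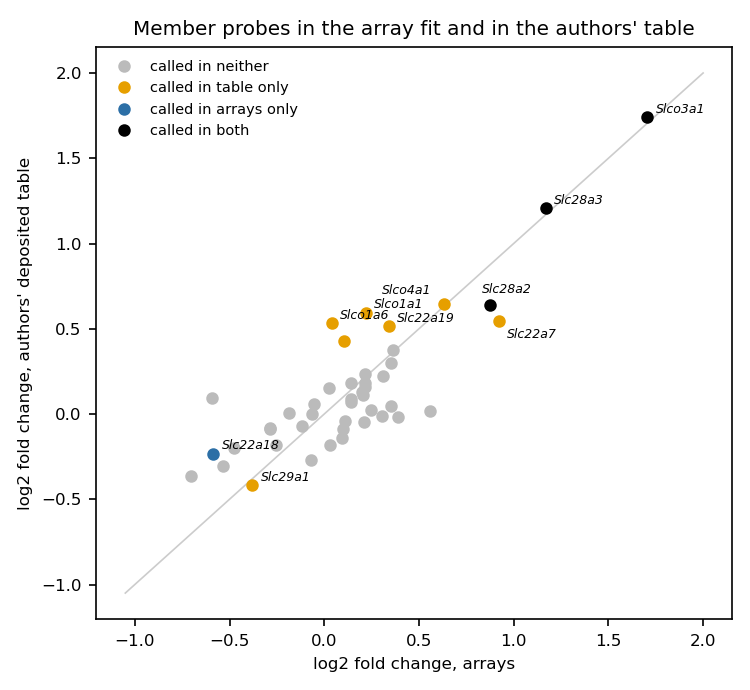
Log2 fold change of 45 of the 46 member probes with a test in the authors' deposited table (y axis) against that from the 8 arrays (x axis), with the line of equality. The 3 probes called in both are black, 7 called in the table alone orange and Slc22a18, called from the arrays alone, blue.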

How the data were processed

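Colon RNA of 8 mice was measured on 8 Agilent 2-colour arrays. Raw foreground and background intensity of each spot, and a normalized log2 ratio, were deposited by the authors; the ratio equals log2(reference / sample) after subtraction and loess, which was checked to within 2.72e-13, so its sign was turned. Per the labels' protocols, oligo-dT primed cRNA was labelled with Cy3 (sample) or Cy5 (reference). Log2 fold changes, t and B scores and p-values of the authors' deposited table come from limma, per the submitters' processing notes, with no version. No source used here names the image program.

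From the intensities, limma 3.58.1 in R 4.3.3 corrected the background (normexp, offset 50), normalized within arrays (loess, control spots at weight 0), averaged the spots of a probe and fitted both groups with lmFit and eBayes. Tests were two-sided with Benjamini-Hochberg adjustment over 41174 probes, and a call needs an adjusted p under 0.05. A probe was above background where its Cy3 signal passed the 95th percentile of the 314 negative control spots. No filter on low values was set. The number of arrays limits the precision.

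The members were taken by the names given at the start, and the partner lists were chosen with earlier results of these data known. Values on each array of the brightest probe are given for called members, the 6 largest changes in each direction among measured members, and carriers with a known role in colon; Slc22a23 was added after its values were seen. Of 100 genes in the partner lists, called ones or those with the smallest p are named. A gene with several probes is led by its brightest. The replicate numbers were not used as pairs (correlations of same-numbered deviations from -0.03 to 0.11). So few correlations cannot exclude a pairing. The script was tested on simulated data. Promoters are RefSeq's, on GRCm38.p6, matched by symbol. One member is not reported here by name; it is in the counts and left out of the figures and of the search for arrays far from their group.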

Additional observations from a re-analysis of the deposited data

Results flagged for a closer look

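Of 120 groups of 4 values tested, 9 held 1 array far from the other 3, by the gap to the nearest value as a share of the group's range; chance alone flags about 1 in 20, or about 6 here. Of the 9, 5 were on replicate 2 of the arrays labelled FVB/N, which also had the fewest members above background (33). On that array Slc22a7 stood at -5.12 (the others -3.61 to -3.39), Slc22a19 at -2.39 (-1.87 to -1.78), Slc22a3 at -0.88 (0.12 to 0.29), Slco1a4 at -0.81 (-0.18 to -0.15) and a Slc29a3 probe at 0.36 (-0.07 to 0.00). On replicate 4 of the same group the dim Slc28a3 probe was at -1.12 (-0.06 to -0.03). Replicate 3 of the arrays labelled Mdr1a-/- had Slc10a2 at -0.70 (-2.71 to -2.55) and Slco4c1 at -0.71 (-0.11 to 0.01). Replicate 4 of that group had the second Slc22a5 probe at -0.58 (-0.29 to -0.23).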

How the results depend on the processing

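Counts as reported were 3 member probes and genes higher and 1 lower, 628 and 598 probes of the array higher and lower, and 0 and 15 partner genes higher and lower. Without one array each, they ran from 2 to 3 and 0 to 1 for members, from 250 to 783 and 247 to 675 for all probes, and from 0 to 2 and 7 to 13 for partner genes; Slc22a18 was lost in all 8, and Slc28a2 in all but that without Mdr1a-/- replicate 2. The lower member was lost (0 lower) with normexp offset 16, median centring, the Cy3 channel alone, a trended robust eBayes, a log2 fold change of at least 1 and, counted over genes, with the mean over a gene's probes. Array weights gave 2 members lower, 1081 and 939 probes and 7 partner genes higher; partner genes higher were 6 without background subtraction and 1 with median centring, the Cy3 channel alone or dim probes left out. Scan day as a block left 1 member higher and 0 lower, 133 and 115 probes and 2 partner genes lower; within scan day 2, with 2 arrays a group, all counts were 0. With the replicate number as a block, members were 1 higher and 0 lower, all probes 310 and 286 and partner genes 6 lower; Slc28a3, Slc28a2 and Slc22a18 missed at adjusted p of 0.0634, 0.0852 and 0.138 in limma, and the numbers share no mouse. The authors' deposited table gave 10 member probes and 9 genes higher. The called probes kept their sign in every fit. Of the others, Slc10a2 (-0.388 to 0.281 without one array) turned to -0.093 with array weights, -0.392 within scan day 2, -0.388 without Mdr1a-/- replicate 3, -0.086 without FVB/N replicate 3 and -0.14 in the authors' deposited table. Slco2a1 (-0.210 to 0.020 without one array) turned to 0.021 with median centring, 0.55 with Cy3 alone, 0.024 within scan day 2 and 0.020 without Mdr1a-/- replicate 1. Slc22a6 (0.0048) and Slc51a (0.00057) turned in the authors' deposited table, and the other probes of Slc51a (0.51) and Slc22a18 (0.20) had the opposite sign. The cause of these changes was not tested.

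Dim signal limits Slc22a3, Slco6c1 and Slc22a29, which were above background on no array, and the 24 member probes that missed background on at least 1 array. A missed threshold does not show equal levels.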
